A study of Rattus norvegicus with 20 samples.

Results

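The 9 genes described here encode the lipid- and starch-digesting enzymes of pancreatic acinar cells and proteins of the zymogen granules that store them: Pnlip, Pnliprp1, Pnliprp2, Cel, Clps, Amy2a3, Gp2, Sycn and Zg16. They were chosen by name, with earlier results of these data known, from a total of 14217 genes measured on each array. All 9 were measured, each by 1 probe set of its own. Expression was measured on an Affymetrix rat array in 20 samples of primary islets from male Wistar rats aged 8 weeks, in 4 groups of 5 arrays. Islets received an adenovirus labelled Nr4a1, an adenovirus labelled Nr4a3 or an adenovirus for green fluorescent protein (GFP), or stayed untreated. Nr4a1 and Nr4a3 are orphan nuclear receptors of 1 family, and the GFP virus controls for the infection. All islets were cultured with 10% serum and 8 mM glucose, virus stayed on for 18 h, and islets were collected 48 h after virus was added. The titles and sample characteristics name these viruses, while the treatment text shared by all samples names β-galactosidase and Nkx6.1 viruses, and the groups here follow the titles. Values are intensities on the linear scale that the authors made with robust multi-array average (RMA), and differences are on the log2 scale.

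Acinar cells make most of the protein that the exocrine pancreas secretes. Enzymes pass through the Golgi into zymogen granules, which fuse with the apical membrane after a meal. Fat digestion needs a lipase, bile salts and colipase together, and amylase cleaves starch. Islets lie within acinar tissue, and isolated islets can carry attached acinar cells. In whole-islet RNA, more acinar cells and more RNA of these genes per cell cannot be told apart.

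One array, Nr4a3 replicate 2, differed from the rest, with a mean correlation across genes (which are not replicates) of 0.941 with the other arrays, whereas the remaining 19 had 0.982 to 0.989. On it the 3' signal of the beta-actin controls exceeded the 5' signal by 4.62 (log2), and on the remaining arrays by 1.5 to 2.21. The Nr4a1 probe set averaged 5.99 ± 0.12 (log2, SD, n = 5) in arrays labelled Nr4a1 and 6.07 ± 0.09 in GFP arrays, and limma found no rise (difference -0.07 ± 0.09, SE, adjusted p = 0.775). The Nr4a3 probe set averaged 5.82 ± 0.19 in arrays labelled Nr4a3 and 5.63 ± 0.17 in GFP arrays (difference 0.19 ± 0.10, limma adjusted p = 0.421), and it rose in arrays labelled Nr4a1 (0.44 ± 0.10, limma adjusted p = 0.00562). The delivered genes therefore do not check the labels, and the groups are called arrays labelled Nr4a1 or Nr4a3. Both probe sets read below the array medians (6.63 to 6.69, log2) on every array, and whether they cover the delivered sequence was not tested. Over the 20 arrays, 13 beta cell genes had a mean log2 intensity of 11.1 to 12.1 and 8 genes of the other hormone cells one of 10.3 to 11.1.

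Promoter windows from RefSeq (build GRCr8), with 250 bases before and 50 after the annotated start of each gene, were found for 6 of the 9 genes. The windows below belong to Pnlip, Pnliprp1 and Pnliprp2, which are consecutive protein-coding genes on chromosome 1, to Cel, and to Gp2, whose difference did not pass the test. All 9 genes varied together across arrays, and the window of Amy2a3 is counted below but not printed. Capitals mark the E-box CANNTG, the RBPJ core TTCCCA, the nuclear receptor hexamer AGGTCA and TATAAA, each on either strand, and each sequence runs 5' to 3' along its gene.
Pnlip promoter, chr1:267784360-267784659, strand +: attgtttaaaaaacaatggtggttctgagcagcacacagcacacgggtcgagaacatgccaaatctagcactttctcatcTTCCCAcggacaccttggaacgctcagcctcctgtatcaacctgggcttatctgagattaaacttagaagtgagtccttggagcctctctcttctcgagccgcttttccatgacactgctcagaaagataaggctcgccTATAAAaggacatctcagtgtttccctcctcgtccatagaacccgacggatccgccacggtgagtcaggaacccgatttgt
Pnliprp1 promoter, chr1:267853777-267854076, strand +: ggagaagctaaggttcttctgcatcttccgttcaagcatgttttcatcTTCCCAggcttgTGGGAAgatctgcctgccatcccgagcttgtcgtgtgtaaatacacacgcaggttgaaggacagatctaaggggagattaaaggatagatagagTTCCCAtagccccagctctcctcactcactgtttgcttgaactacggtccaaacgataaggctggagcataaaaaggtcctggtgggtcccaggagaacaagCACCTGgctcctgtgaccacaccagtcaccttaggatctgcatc
Pnliprp2 promoter, chr1:267883656-267883955, strand +: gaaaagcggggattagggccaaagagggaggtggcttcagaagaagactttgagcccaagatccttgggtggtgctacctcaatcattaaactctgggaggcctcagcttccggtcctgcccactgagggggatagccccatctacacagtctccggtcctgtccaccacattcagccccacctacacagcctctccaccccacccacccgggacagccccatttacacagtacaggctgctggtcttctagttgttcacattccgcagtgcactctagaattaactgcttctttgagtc
Cel promoter, chr3:32288970-32289269, strand -: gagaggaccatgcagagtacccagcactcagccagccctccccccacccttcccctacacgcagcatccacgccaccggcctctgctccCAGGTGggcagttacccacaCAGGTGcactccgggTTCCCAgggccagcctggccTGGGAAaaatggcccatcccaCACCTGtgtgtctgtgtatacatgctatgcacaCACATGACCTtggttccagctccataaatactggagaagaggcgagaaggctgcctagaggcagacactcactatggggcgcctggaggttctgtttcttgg
Gp2 promoter, chr1:183243905-183244204, strand -: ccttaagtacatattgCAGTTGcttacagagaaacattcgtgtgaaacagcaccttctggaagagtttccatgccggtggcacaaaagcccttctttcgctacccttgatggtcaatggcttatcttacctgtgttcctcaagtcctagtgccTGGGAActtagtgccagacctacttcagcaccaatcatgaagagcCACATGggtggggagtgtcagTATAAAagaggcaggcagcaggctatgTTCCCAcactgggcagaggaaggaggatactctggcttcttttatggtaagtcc

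The NBRE, the octamer AAAGGTCA that NR4A receptors bind as monomers, was in 0 of the 6 windows and in 1.43% of all 33469 promoter windows of this length. Its shorter form AGGTCA, which lies within it, was found only in Cel, at position -48 on the reverse strand, where it overlapped an E-box, and in 16.2% of all windows. E-boxes, which basic helix-loop-helix factors such as PTF1A bind, were in 4 of 6 windows (Pnliprp1, Cel, Amy2a3 and Gp2) and in 72.1% of all. The RBPJ core, read by the partner proteins of PTF1A, was in 4 of 6 (Pnlip, Pnliprp1, Cel and Gp2) and in 25.7% of all. TATAAA stood at position -31 in Pnlip and Gp2 and at -27 in Amy2a3, and was in 14.2% of all windows. The Pnliprp2 window held none of these 5 motifs. Such matches describe letters in a window and nothing about binding.

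The Nr4a1-labelled arrays were first compared with the GFP arrays, which also received a virus. Of the 9 genes, 8 rose at a limma adjusted p under 0.05, against 6.16% of all genes called higher, and none fell. The genes were chosen with earlier results known and varied together, so this count is a description and not independent support. Their differences ran from 1.70 for Gp2, the gene that did not pass, to 3.07 for Pnlip on the log2 scale, with a median of 2.43, against a median of -0.0013 over all genes. In 6 of 9 genes every Nr4a1-labelled array lay above every GFP array, against 10.6% of all genes. The pattern of these genes by array is plotted next.

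**Figure D1:**
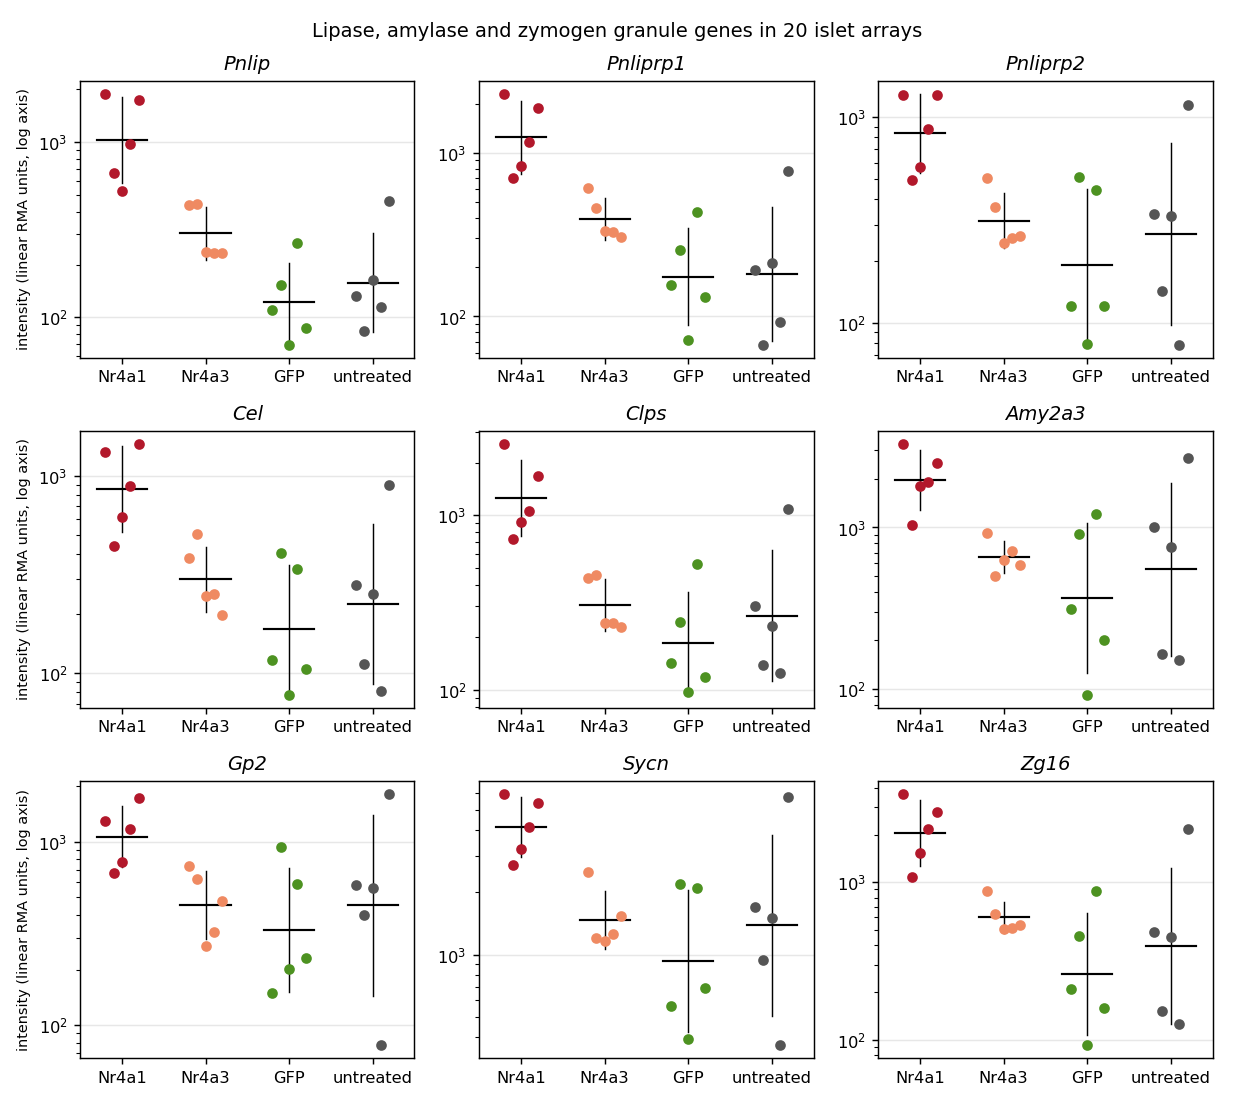
Intensity of the 9 genes on each of the 20 arrays (linear RMA units on a log axis, 5 arrays per group in replicate order, with horizontal bars for the mean and vertical bars for 1 SD of the log2 values). The Nr4a1-labelled arrays lie above all GFP arrays for Pnlip, Pnliprp1, Cel, Clps, Sycn and Zg16, and untreated replicate 5 is the highest untreated array for all 9 genes.

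Pnlip encodes pancreatic triglyceride lipase, the main enzyme of fat digestion. Its intensity in Nr4a1-labelled arrays was 1887, 668, 524, 972 and 1726 in the order of the replicates, in Nr4a3-labelled arrays 438, 444, 237, 233 and 233, in GFP arrays 110, 153, 69.5, 264 and 86.7 and in untreated arrays 132, 83.7, 164, 115 and 463. The Nr4a1-labelled arrays lay above all other 15 arrays, and the Nr4a3-labelled arrays overlapped both control groups. Pnlip rose 8.38-fold in Nr4a1-labelled against GFP arrays (log2 3.07 ± 0.44, SE, n = 5 per group, limma adjusted p = 0.000136).

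Pnliprp1 and Pnliprp2, its neighbours on the chromosome, encode related proteins. The first is known for little activity on triglycerides and the second also cleaves phospholipids and galactolipids. Pnliprp1 ran from 702 to 2309 (median 1173) in Nr4a1-labelled arrays and from 72.1 to 435 (median 156) in GFP arrays, and rose 7.11-fold (log2 2.83 ± 0.54, limma adjusted p = 0.00193). Pnliprp2 ran from 493 to 1286 (median 872) in Nr4a1-labelled arrays and from 78.8 to 511 (median 121) in GFP arrays, where the ranges overlapped, and it rose 4.35-fold (log2 2.12 ± 0.59, limma adjusted p = 0.0282). The differences of these 3 adjacent genes were not tested against each other.

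Cel encodes the bile salt-dependent lipase, which hydrolyses cholesterol esters and triglycerides. It ran from 442 to 1448 (median 890) in Nr4a1-labelled arrays and from 77.4 to 406 (median 116) in GFP arrays, without overlap, and rose 5.13-fold (log2 2.36 ± 0.56, limma adjusted p = 0.0102). Clps encodes colipase, the cofactor that anchors pancreatic lipase on droplets covered by bile salts. Its intensity was 2564, 734, 917, 1059 and 1670 in Nr4a1-labelled arrays, 435, 452, 242, 242 and 227 in Nr4a3-labelled arrays, 143, 245, 96.5, 526 and 118 in GFP arrays and 301, 139, 231, 125 and 1077 in untreated arrays. The groups labelled Nr4a1 and GFP did not overlap, and Clps rose 6.8-fold (log2 2.77 ± 0.52, limma adjusted p = 0.00172).

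Amy2a3 encodes a pancreatic alpha-amylase. Its own probe set read 3298, 1035, 1799, 1909 and 2519 in Nr4a1-labelled arrays, 929, 503, 630, 718 and 590 in Nr4a3-labelled arrays, 315, 916, 91.6, 1205 and 202 in GFP arrays and 1008, 165, 755, 151 and 2677 in untreated arrays. Among the GFP arrays the highest was 13.2-fold above the lowest, the widest span of any of the 9 genes in that group, and 4 of 5 Nr4a1-labelled arrays lay above all of them. Amy2a3 rose 5.4-fold (log2 2.43 ± 0.70, limma adjusted p = 0.0343). A second probe set, which names both Amy2a3 and the salivary-type gene Amy1 and was not tested, read 7881, 2594, 4055, 4862 and 7111 in Nr4a1-labelled arrays, 2698, 6549, 1512, 1795 and 1588 in Nr4a3-labelled arrays, 807, 2293, 236, 3223 and 519 in GFP arrays and 2315, 440, 1991, 387 and 8243 in untreated arrays. Nr4a3 replicate 2 was the lowest array of its group by the first amylase probe set and the highest by the second. Amylase copies share sequence, so their RNAs may not be separated by either probe set.

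Of the granule proteins, syncollin (Sycn) attaches to the inner face of the granule membrane and Zg16 is a lectin-like protein of the granule. Sycn read 5965, 2710, 3235, 4140 and 5399 in Nr4a1-labelled arrays, 2514, 1198, 1163, 1260 and 1529 in Nr4a3-labelled arrays, 563, 2194, 391, 2097 and 690 in GFP arrays and 1696, 942, 1502, 364 and 5786 in untreated arrays. Every Nr4a1-labelled array was above every GFP array, and Sycn rose 4.41-fold (log2 2.14 ± 0.56, limma adjusted p = 0.0199). Zg16 ran from 1084 to 3651 (median 2172) in Nr4a1-labelled arrays and from 91.8 to 884 (median 210.1) in GFP arrays, without overlap, and rose 7.87-fold (log2 2.98 ± 0.64, limma adjusted p = 0.0048).

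Gp2, the main membrane glycoprotein of zymogen granules, was the exception. Its intensity was 1302, 676, 776, 1167 and 1727 in Nr4a1-labelled arrays, 736, 625, 270, 322 and 474 in Nr4a3-labelled arrays, 150, 937, 201, 589 and 231 in GFP arrays and 581, 397, 562, 77.5 and 1822 in untreated arrays. GFP replicate 2 lay above 2 of the Nr4a1-labelled arrays, and the difference was 1.70 ± 0.62 (log2, limma adjusted p = 0.104). That does not show that Gp2 moved less than the others, since the difference between genes was not tested.

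The number called was sensitive to single arrays. It was 5 of 9 without Nr4a1 replicate 1 or GFP replicate 1, 3 or 5, where Pnliprp2, Amy2a3 and Sycn lost their calls (limma adjusted p from 0.0529 to 0.109). Pnliprp2 also lost its call without Nr4a1 replicate 4 or 5 (0.0605 and 0.0673) and Amy2a3 without Nr4a1 replicate 3, 4 or 5 (0.052 to 0.0702), while Pnlip, Pnliprp1, Cel, Clps and Zg16 passed in all 20 refits without 1 array. Gp2 passed without GFP replicate 2 (limma adjusted p = 0.0494) and without untreated replicate 4 (0.0324), as well as in a fit to only the 10 arrays compared (0.0237) and with array weights (0.0219). Without Nr4a3 replicate 2 the count stayed at 8, while the genes called higher among all genes went from 876 to 1739.

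The comparison of Nr4a3-labelled with GFP arrays uses the same GFP arrays. None of the 9 genes passed limma at an adjusted p under 0.05, against 1.75% of all genes called higher, while 2 of 9, Pnlip and Pnliprp1, had an unadjusted p under 0.05, against 12.8% of all genes. All 9 differences were above 0, from 0.46 for Gp2 to 1.31 for Pnlip, with a median of 0.84. Pnlip differed by 1.31 ± 0.44 (SE, limma adjusted p = 0.166), Pnliprp1 by 1.17 ± 0.54 (adjusted p = 0.369) and Zg16 by 1.19 ± 0.64 (adjusted p = 0.459, limma). In 0 of 9 genes did the groups lie apart, against 3.12% of all genes higher without overlap. All 5 Nr4a3-labelled arrays lay above the GFP median for each of the 9 genes. These genes varied together, and the share of all genes with this pattern was not counted. Above the untreated median lay all 5 for Pnlip, Pnliprp1 and Zg16, and 4 for Clps. For Pnliprp2, Cel, Gp2 and Sycn 2 of 5 did so, and for Amy2a3 1 of 5. With array weights limma called 1 of 9, Pnlip (log2 1.39, adjusted p = 0.0264).

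**Figure D2:**
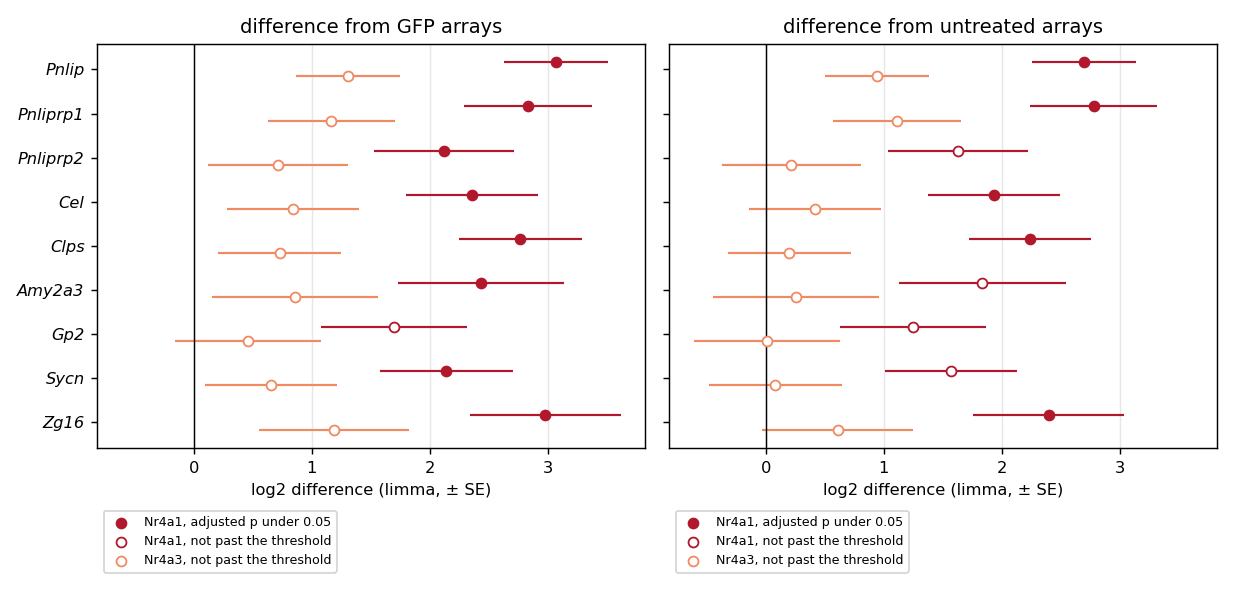
Log2 difference of each gene from GFP arrays (left) and from untreated arrays (right), for Nr4a1-labelled (red) and Nr4a3-labelled (orange) arrays, 5 arrays per group, with the limma standard error as a horizontal bar. Filled points have an adjusted p under 0.05: 8 of 9 for Nr4a1 against GFP, 5 of 9 for Nr4a1 against untreated and none for Nr4a3.

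Set directly against each other, the Nr4a1-labelled arrays were higher than the Nr4a3-labelled arrays by 1.24 (Gp2) to 2.04 (Clps) on the log2 scale. No gene passed limma at an adjusted p under 0.05, against 0.598% of all genes called higher, and 8 of 9 had an unadjusted p under 0.05, against 11.5% of all genes. Pnlip differed by 1.76 ± 0.44 (SE, limma adjusted p = 0.0817) and Clps by 2.04 ± 0.52 (limma adjusted p = 0.0883). In 6 of 9 genes, Pnlip, Pnliprp1, Clps, Amy2a3, Sycn and Zg16, all Nr4a1-labelled arrays lay above all Nr4a3-labelled arrays, against 1.72% of all genes. Pnlip passed without Nr4a1 replicate 3 (limma adjusted p = 0.0412), both Pnlip and Clps passed without untreated replicate 5 (0.0348 and 0.0274, an array that acts here only through the common variance), and both passed with array weights (0.0213 and 0.0231).

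Against untreated islets, 5 of 9 genes were called higher in the Nr4a1-labelled arrays, compared with 5.35% of all genes: Pnlip (log2 2.70 ± 0.44, limma adjusted p = 0.000571), Pnliprp1 (2.78 ± 0.54, adjusted p = 0.00257), Clps (2.24 ± 0.52, adjusted p = 0.00965), Zg16 (2.40 ± 0.64, adjusted p = 0.0229) and Cel (1.93 ± 0.56, adjusted p = 0.0364). Pnliprp2, Amy2a3, Sycn and Gp2 differed by 1.63, 1.84, 1.57 and 1.25 and did not pass. Only Pnlip had groups apart, compared with 7.65% of all genes higher without overlap. Cel no longer passed when Nr4a1 replicate 1, 4 or 5 or untreated replicate 1, 2, 3 or 4 was omitted, at limma adjusted p values of 0.0558 to 0.111. The same held for Zg16 with Nr4a1 replicate 1 or 5 or untreated replicate 2 or 4 omitted, at 0.0554 to 0.0733. Without untreated replicate 5 the count was 8 of 9, all but Gp2.

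The Nr4a3-labelled arrays differed from untreated islets by 0.01 (Gp2) to 1.11 (Pnliprp1). None of the 9 genes passed limma (1.23% of all genes were called higher), 0 of 9 had groups apart (1.82% of all genes higher without overlap), and 1 of 9, Pnlip, had an unadjusted p under 0.05, against 14% of all genes. The GFP virus against no virus gave differences of -0.60 (Amy2a3) to -0.05 (Pnliprp1), and no gene passed limma, among the 9 or among all genes tested (0%), while 0 of 9 and 412 of 14217 had an unadjusted p under 0.05. The 95% interval of the Pnlip difference between GFP and untreated arrays was -1.29 to 0.55.

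The spread within groups was itself large and unequal, whereas the main fit used 1 variance per gene for all groups. Its standard errors therefore do not follow the spread of the groups compared. The SD of log2 values, over the 9 genes, was 0.48 to 0.82 in the Nr4a1-labelled, 0.33 to 0.61 in the Nr4a3-labelled, 0.75 to 1.54 in the GFP and 0.94 to 1.78 in the untreated arrays. Untreated arrays spanned 5.54-fold (Pnlip) to 23.5-fold (Gp2) from lowest to highest, whereas Nr4a3-labelled arrays spanned 1.75-fold (Zg16) to 2.72-fold (Gp2). Untreated replicate 5 was the highest of its group for 9 of 9 genes and untreated replicate 4 the lowest for 7 of 9, and GFP replicates 2 and 4 were the highest for 4 and 5 of 9. The 9 genes moved together: within groups, the deviation of each gene from its group mean correlated at 0.871 (Gp2) to 0.988 (Pnliprp2) with the mean deviation of the other 8 (Pearson's r over 20 arrays, which share RNA and normalization, given as a description). Outside the 9 genes the highest values with their mean deviation belonged to Ctrl (0.984), Ctrc (0.978), Cela2a (0.974), Prss3b (0.971) and Cpa1 (0.967), against a median of -0.03 over all genes. Ctrl, Ctrc, Cela2a and Cpa1 are genes of pancreatic proteases.

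The untreated array with the highest values, replicate 5, was set beside the Nr4a1-labelled arrays as a description, having been singled out after its values were seen. It read 1822 for Gp2, above all 5 Nr4a1-labelled arrays, and its Amy2a3 (2677) and Sycn (5786) were above 4 of them. Its Pnlip (463) was below all 5 Nr4a1-labelled arrays and its Pnliprp1 (778) below 4 of them. The mean of the Nr4a1-labelled arrays was thus 2.2-fold that array for Pnlip and 1.6-fold for Pnliprp1, but 0.71-fold for Sycn and 0.585-fold for Gp2. The log2 difference of Pnlip minus Sycn within an array, a relative measure and not a ratio of molecules, averaged -2.01 ± 0.40 (SD) in Nr4a1-labelled arrays, -2.28 ± 0.50 in Nr4a3-labelled arrays, -2.94 ± 0.58 in GFP arrays and -3.14 ± 0.85 in untreated arrays, with overlapping ranges. This pair was chosen after the values were seen and was not tested, and Pnlip but not Sycn reached values below the array medians.

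**Figure D3:**
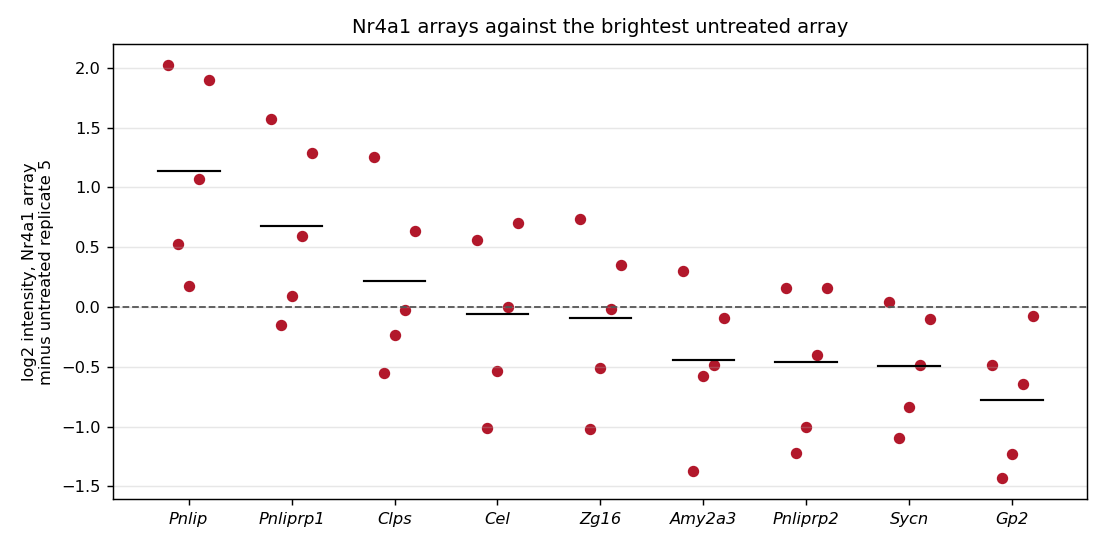
Log2 intensity of each of the 5 Nr4a1-labelled arrays (points, in replicate order, with horizontal bars for the mean) minus that of untreated replicate 5 (dashed line at 0), by gene. All 5 points are above the line for Pnlip and below it for Gp2.

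Other genes of the acinar cell were read from lists, also chosen with earlier results known. Their counts stand against 6.16% of all genes called higher in Nr4a1-labelled and 1.75% in Nr4a3-labelled arrays, each against GFP arrays. Of 12 measured zymogen protease genes, 11 rose in Nr4a1-labelled against GFP arrays, with a median log2 difference of 2.57, and 0 of 12 passed in Nr4a3-labelled against GFP arrays, with a median of 0.76 (limma). Cela2a, an elastase gene, rose by 3.40 ± 0.65, the trypsinogen gene Prss2 by 3.34 ± 0.69 and the carboxypeptidase gene Cpb1 by 3.30 ± 0.60 in the Nr4a1-labelled arrays. Pla2g1b, which encodes the secreted phospholipase of pancreatic juice, rose by 1.83 ± 0.56 (limma adjusted p = 0.0472). Gatm, which encodes a creatine synthesis enzyme abundant in acinar cells, rose by 2.34 ± 0.32 in Nr4a1-labelled arrays (limma adjusted p = 8.86e-05) and by 2.35 ± 0.32 in Nr4a3-labelled arrays (limma adjusted p = 0.000451), both against the same GFP arrays. Spink1, whose product inhibits trypsin, rose by 3.59 ± 0.69 and Reg3b, which encodes a secreted lectin of stressed acinar cells, by 2.62 ± 0.54, among 5 of 7 genes of that list. In Nr4a3-labelled against GFP arrays 2 of these 7 rose, Spink1l (2.21 ± 0.55, limma adjusted p = 0.0405) and Serpini2 (1.02 ± 0.22, limma adjusted p = 0.0177).

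Regulators and machinery of these cells were read in the same comparison, where 6.16% of all genes were called higher and 2.55% lower, and the counts of granule transport, protein folding and other lipase genes lay near these shares. Of 6 measured acinar transcription factor genes 1 rose, Xbp1, the factor that expands the secretory endoplasmic reticulum (0.74 ± 0.10 for Nr4a1 and 0.47 ± 0.10 for Nr4a3 against GFP). Ptf1a, which drives enzyme genes in acinar cells, had a mean log2 intensity of 4.74 in Nr4a1-labelled and 4.50 in GFP arrays, and Bhlha15, which governs granule maturation, differed by -0.11 ± 0.15. None of 6 receptor genes for secretagogues passed, with differences of -0.06 to 0.20. Their mean log2 intensity per array was only 5.95 to 6.26, below the array medians of 6.63 to 6.69. Ptf1a also lay below these medians, and a change at such low intensities may go unseen. The receptor gene Cckar and the transcription factor gene Rbpjl were listed but not measured. Of 14 genes of granule transport and fusion 1 rose, the small GTPase gene Rab26 (0.40 ± 0.10). Of 20 genes of protein folding 2 rose, Erp27 (0.86 ± 0.24) and the pancreatic disulfide isomerase gene Pdia2 (0.58 ± 0.12), and 1 fell, Ero1b (-0.63 ± 0.12). Among 12 other lipase genes 1 rose, the lipoprotein lipase gene Lpl (0.49 ± 0.15), and the list median was 0.02.

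**Figure D4:**
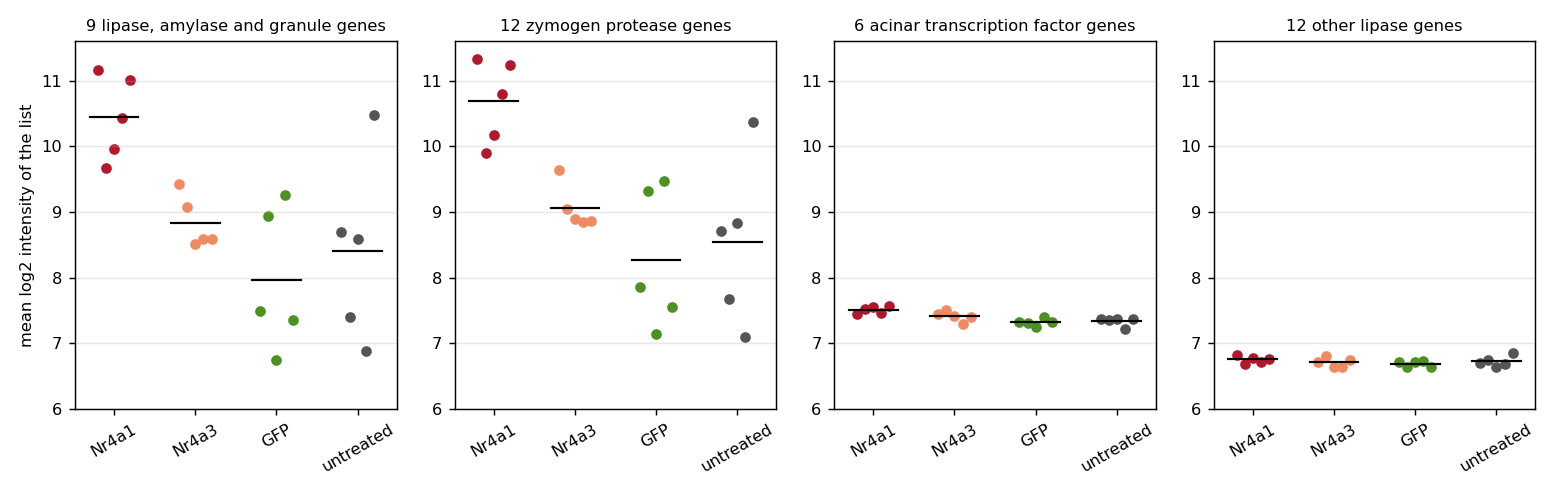
Mean log2 intensity of the genes of 4 lists on each array (points, 5 arrays per group in replicate order, with horizontal bars for the group mean). The 9 genes and the zymogen proteases follow the same arrays up and down. The acinar transcription factors lie within 7.22 to 7.57 and the other lipases within 6.64 to 6.86. In that narrow span the transcription factor means of Nr4a1-labelled arrays (7.45 to 7.57) lie above those of GFP (7.25 to 7.40) and untreated arrays (7.22 to 7.38). Of the 6 genes in these means only 1, Xbp1, was called higher against GFP.

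Genes that mark cell types were read from lists in Nr4a1-labelled against GFP arrays, and only some of the lists moved. Of 9 measured acinar markers outside the 9 genes, 7 rose in Nr4a1-labelled against GFP arrays. These 7 were protease genes already counted above, and the other markers, Ptf1a and Bhlha15, did not pass. The summed intensity of the 9 markers was 23211 to 51958 in Nr4a1-labelled, 8494 to 21486 in Nr4a3-labelled, 2453 to 16486 in GFP and 3055 to 31116 in untreated arrays. Of 12 duct cell genes 2 rose, Car2 (2.21 ± 0.19, and 1.59 ± 0.19 in Nr4a3-labelled arrays) and Tff2 (1.58 ± 0.34), against 6.16% of all genes called higher. The differences of the 12 duct genes ran from -0.36 (Krt7, which was lower in all Nr4a1-labelled than in all GFP arrays and did not pass the test) to 2.21, with a median of 0.06 and a summed intensity of 19899 to 23381 in Nr4a1-labelled and 16034 to 22098 in GFP arrays. Of 13 beta cell genes 5 fell, against 2.55% of all genes called lower, among them Gipr (-0.76 ± 0.12) and Pdx1 (-0.69 ± 0.13), with sums of 103636 to 114732 in Nr4a1-labelled and 115549 to 120443 in GFP arrays. Of 11 endothelial genes 7 fell, among them Flt1 (-0.78 ± 0.15), with sums of 1703 to 2535 in Nr4a1-labelled and 2762 to 4398 in GFP arrays. None of 12 stellate cell, 12 leukocyte or 8 other hormone cell genes passed. For GAPDH, the 3' control signal exceeded the 5' signal by 0.271 to 0.357 in Nr4a1-labelled, 0.409 to 2.06 in Nr4a3-labelled, 0.499 to 0.739 in GFP and 0.408 to 0.72 in untreated arrays (log2). The part of cell makeup and of RNA quality in the differences of the 9 genes was not tested.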

How the data were processed

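RNA of 20 islet samples was measured on 1 array each. The authors deposited 1 intensity per probe set from RMA, per the submitters' processing notes, without a version. RMA in general subtracts background, equalizes the arrays' distributions and summarizes probes, which can compress large differences. They were on a linear scale and were log2-transformed, with no filter. Symbols came from the platform's probe table, and 20832 of 31099 probe sets had 1 symbol, 436 several and 9831 none. Each of 14217 genes was represented by its brightest probe set (mean over the 20 arrays). Detection calls were not used here, and the number of arrays limits the precision.

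limma 3.58.1 in R 4.3.3 fitted 1 mean per group to all 20 arrays (16 residual and 3.64 prior degrees of freedom). Two-sided p-values were adjusted by the Benjamini-Hochberg method over all genes in each of 6 comparisons, and called at an adjusted p under 0.05. Replicates are biological per the labels, without animals being named, so p-values measure the spread between these samples. The fit was tested on simulated data with independent genes and the same spread in all groups, unlike these data. Named genes were the 9 genes, the NR4A genes, the 4 genes of each list at most that ranked first by adjusted p (Nr4a1 against GFP), and the 5 genes varying most like the 9. The 9 genes and the lists were chosen with earlier results of these data known. Alternatives were a fit to the 10 arrays compared, a replicate block, array weights, repeated quantile normalization, median centring, the brighter 7108 genes, all probe sets, and each array left out.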

Additional observations from a re-analysis of the deposited data

How the results depend on the processing

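Every difference of the 9 genes kept its sign under all 27 alternatives in every comparison but GFP and Nr4a3 against untreated. Signs turned when single arrays were left out only among differences that did not pass. Over the 20 refits, GFP minus untreated ran from -0.65 to 0.021 for Pnlip, -0.41 to 0.47 for Pnliprp1, -0.94 to 0.0281 for Pnliprp2, -0.79 to 0.0729 for Cel, -1.08 to 0.056 for Gp2 and -1.02 to 0.0427 for Zg16, and Nr4a3 minus untreated from -0.23 to 0.74 for Pnliprp2, -0.0683 to 0.71 for Clps, -0.21 to 0.83 for Amy2a3, -0.62 to 0.52 for Gp2 and -0.40 to 0.60 for Sycn. The number of the 9 genes called ran from 5 to 9 for Nr4a1 against GFP, 0 to 2 for Nr4a1 against Nr4a3 and 3 to 8 for Nr4a1 against untreated, and array weights called 1 for Nr4a3 against GFP and 2 for Nr4a1 against Nr4a3.

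Over all genes, single arrays left out moved the 1239 calls for Nr4a1 against GFP to between 742 and 2714, the 274 for Nr4a3 against GFP to 127 to 527, the 90 for Nr4a1 against Nr4a3 to 43 to 133, the 1129 for Nr4a1 against untreated to 714 to 2710 and the 213 for Nr4a3 against untreated to 93 to 538. In that order, fits to only the 10 arrays compared called 2853, 122, 1, 1800 and 27 genes, and array weights 3576, 1027, 274, 2398 and 393. In each of these comparisons the highest count came without Nr4a3 replicate 2, also where that array acts only through the common variance. The brighter 7108 genes gave 135 calls for Nr4a3 against GFP and 127 for Nr4a3 against untreated. The cause of these shifts was not tested.

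Deviations of arrays with the same replicate number correlated at -0.297 to 0.495, with 7 of 30 pairs over 0.1. Of 20 arrays, 4 correlated best with an array of their own number. The labels do not say whether arrays with the same number shared a preparation of islets, and such correlations cannot exclude it. With the replicate number as a block, 1088, 204, 70, 994 and 188 genes were called in the order above, and 7, 0, 0, 4 and 0 of the 9 genes; Amy2a3 missed the threshold against GFP (limma adjusted p = 0.0554) and Cel against untreated (0.0616). GFP against untreated had 0 calls in every alternative.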
